A study of Equus asinus with 3 samples.

Results

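The testis interstitial stromal barcodes are the barcodes of a donkey (Equus asinus) testis library that held at least 5 unique molecular identifiers (UMIs, each standing for 1 captured transcript molecule) summed over 5 genes. These are the proteoglycan gene DCN, the fibrillar collagen genes COL1A1, COL1A2 and COL3A1, and the lipid carrier gene APOD. The rule was met by 145 of 8610 testis barcodes (1.68%, exact 95% binomial interval 1.42 to 1.98%), out of 27699 barcodes in the series. The study profiled single cells of the testis and of the caput (head) and corpus (body) of the epididymis, the duct in which sperm mature, from sexually mature males. There was 1 library per tissue, the sources used here do not give how the 3 animals relate to the libraries, and no difference below has a replicate check. The tissue was held in storage solution, digested with collagenase IV and DNase I, strained and loaded on droplets, and the labels describe no sort. The labels call the testis cells germ cells and the epididymal cells somatic cells. Intervals are 95% intervals and reflect counting error alone.

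The interstitium of the testis lies between the seminiferous tubules, in which sperm are made. It holds steroid-making Leydig cells, fibroblast-like stromal cells that include Leydig progenitors, blood vessels and macrophages, and each tubule is wrapped by contractile peritubular myoid cells. In mouse and human testis, stromal cells of this compartment are known by gonadal transcription factors and matrix genes, Leydig cells by steroidogenic enzymes and the hormone INSL3, and myoid cells by smooth muscle genes.

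The testis library held 47686179 UMIs at a median of 4714 per barcode. The caput library held 13203203 at a median of 1145, and the corpus library 4142512 at a median of 371. In the testis 1266 barcodes were merged from more than 1 bead, per the barcode names. The barcodes are numbered within each library, so barcodes shared between libraries could not be counted. A Scrublet-like score marked 15 testis barcodes as doublets (0.174%), none of them a member (0). Calls this few were not used, and no doublet was removed.

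The members held 632351 UMIs in all, with a lowest, median and highest value per barcode of 1818, 3199 and 18761. The UMIs that chose them were mainly APOD (1396) and DCN (1374), followed by COL1A2 (281), COL3A1 (214) and COL1A1 (134). Members held 5 to 100 of these UMIs, with a median of 16. COL3A1 made up 6.30% of such UMIs in the members and 52.0% in the remaining 8465 testis barcodes, none of which held over 4 in all. Just inside the threshold, 12 barcodes had 5 such UMIs and a median germ share of 5.07%. Just outside it, 14 had 4 and a median germ share of 5.75%. The germ share is the percentage of a barcode's UMIs that fell on 136 measured genes of a list of germ cell genes.

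The members fell into 2 sets by germ share. In 56 members, called germ-poor here, it lay between 0.404 and 1.66%, with a median of 0.833%. In the other 89 members, called germ-rich, it lay between 3.06 and 8.44%, with a median of 4.78%. No member lay between 1.66 and 3.06%, and the line drawn at 2% was chosen after these values were seen. The remaining testis barcodes had a median of 5.49%, so the germ-rich members stood near the rest of their own library. By the same rule for choosing barcodes, the summed germ share was 0.411% in caput and 0.153% in corpus.

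**Figure D1:**
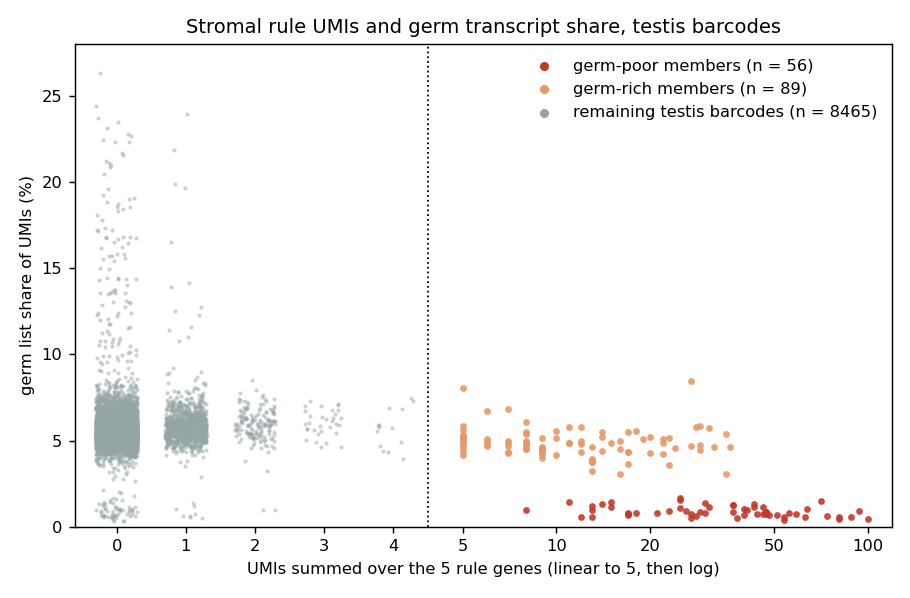
Germ list share of UMIs (vertical axis, %) against the UMIs summed over the 5 rule genes (horizontal axis, linear to 5 and logarithmic above) in each testis barcode, with the 56 germ-poor members, the 89 germ-rich members and the 8465 remaining barcodes in 3 colours and the threshold as a dotted line. Members form bands at 0.404 to 1.66% and at 3.06 to 8.44%, and all 14 barcodes with 50 or more rule UMIs are in the lower band.

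The rule UMIs and the germ share ran against each other. All 14 members with 50 to 100 rule UMIs were germ-poor, as were 29 of 48 with 20 to 49, 12 of 41 with 10 to 19 and 1 of 25 with 7 to 9. None (0) of the 17 members with 5 or 6 was, where 12 had 5 and 5 had 6. Germ-poor members thus held 64.8% of the members' rule UMIs, while germ-rich members held 80.2% of all the members' UMIs. Depth moved with the split, with a median of 2105.5 UMIs and 1351 genes in germ-poor members and of 5082 UMIs and 2563 genes in germ-rich members. Merged barcodes moved with it as well, at 0 of 56 germ-poor members and 21 of 89 germ-rich members.

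Germ genes were present in the germ-poor members too. The germ list summed to 8804 CPM in germ-poor members (8292 to 9338), 49659 in germ-rich members and 56784 in the remaining testis barcodes. CPM (counts per 1000000) are a group's summed UMIs of a gene or list, scaled to its summed UMIs over all genes. TNP1, the transition protein of condensing spermatids, stood at 303 CPM in germ-poor members, 416 in germ-rich members and 842 in the remaining barcodes. In the top 10% of doublet scores over all testis barcodes lay 18 of the 89 germ-rich members and 0 of the 56 germ-poor members. The median score was 0.0905 in germ-rich members, 0.0874 in germ-poor members and 0.0498 in the remaining testis barcodes. The part of doublets and of free RNA in either set was not tested.

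The markers of the label were counted in both sets. DCN and APOD are rule genes, so their presence was set by the choice of barcodes. The other 4 markers are APOE, ACTA2, LHX9 and STMN2. They came with the label, which was set with earlier results of these data known. Their presence therefore describes the 2 sets and is no independent check of the label. In germ-poor members, DCN was found in 54, APOD and APOE, both lipid carriers, in 56 each, ACTA2 (smooth muscle actin) in 46, LHX9 (a LIM homeobox factor needed for gonad formation in mice) in 45, and STMN2 (a microtubule-binding stathmin) in 32 of 56. In germ-rich members, DCN and APOE were found in 82 each, APOD in 78, ACTA2 in 50, LHX9 in 40 and STMN2 in 23 of 89, at a higher depth. To set depths equal, each testis barcode was thinned to 1816 UMIs, which left out 0 barcodes. LHX9 then had a UMI in 78.6% of germ-poor members, 15.7% of germ-rich members and 3.28% of the remaining testis barcodes. ACTA2 had one in 82.1, 34.8 and 0.602% of these groups, STMN2 in 55.4, 11.2 and 0.343%, and APOE in 100, 74.2 and 1.62%. The remaining barcodes, of which 71 were germ-poor, are a comparison group, and the part of free RNA in their values was not tested. Before thinning, at medians of 2105.5, 5082 and 4735 UMIs, the germ-poor, germ-rich and remaining barcodes with LHX9 were 80.4, 44.9 and 9.25%. These 4 markers were thus present in germ-poor members, while the germ-rich members carried them in a smaller share of barcodes at equal depth and beside a germ share close to that of the remaining barcodes.

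**Figure D2:**
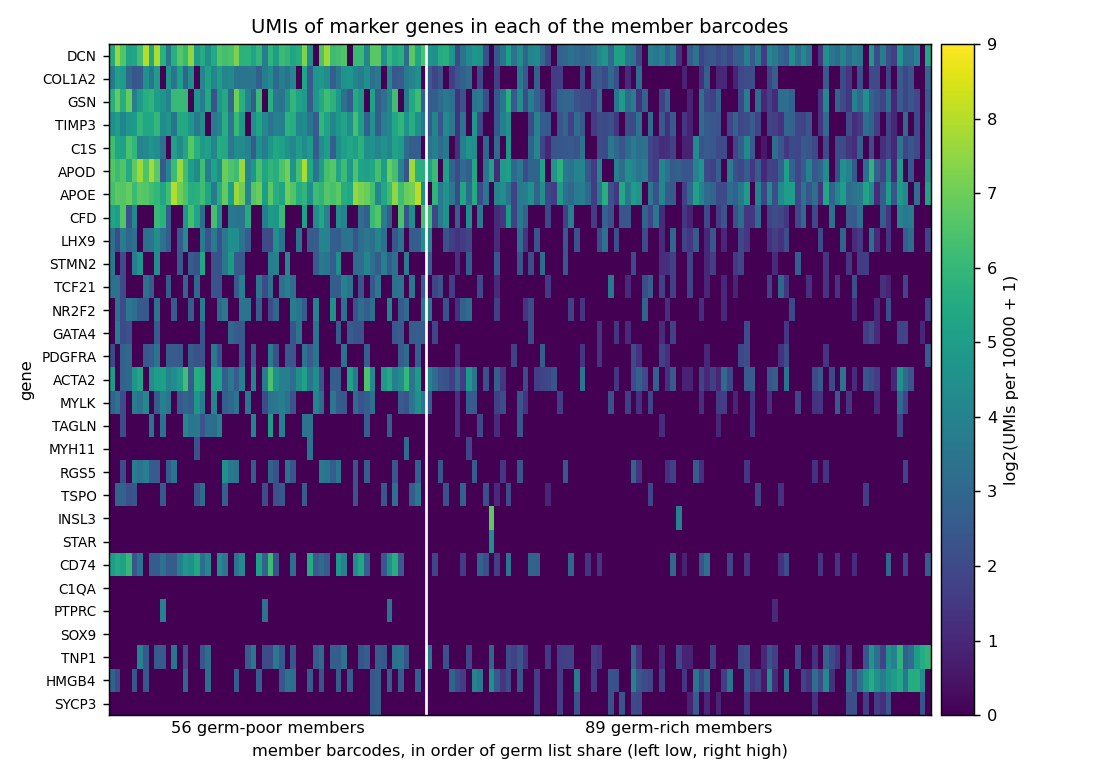
UMIs per 10000, on a log2 scale after adding 1 (colour), of marker genes (rows) in each of the 145 member barcodes (columns, in order of germ share, with a white line between the 56 germ-poor members on the left and the 89 germ-rich members on the right). DCN, APOD, APOE, LHX9 and ACTA2 are densest on the left, INSL3 is in 2 germ-rich members, and C1QA and SOX9 are empty in every column.

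Counts against the epididymal libraries used barcodes chosen by the same 5-gene rule, 853 of 9478 in caput (9.0%) and 3257 of 9611 in corpus (33.9%), at medians of 1256 and 403 UMIs. A list of 16 luminal epithelial genes summed to 6.33 CPM in members, 9070 CPM in caput and 319 CPM in corpus, and the part of those transcripts in the differences was not tested. A gene was called higher or lower when the whole interval of its ratio of CPM lay beyond 4-fold and the higher side had at least 50 UMIs, with the 5 rule genes left out of the counts. Over all 145 members, 658 genes (9.72% of 6768) were called higher than in caput and 684 (10.1%) lower. Against corpus 930 (12.9% of 7229) were called higher and 745 (10.3%) lower. Few of those higher genes also stood above the remaining testis barcodes. When a gene also had to lie, by its whole interval, over 2-fold above the remaining testis barcodes, 7 (0.103%) remained against caput, 4 (0.0553%) against corpus and 4 (0.0632% of 6334) against both. Those with a symbol were LHX9, ACTA2 and STMN2 in either, and CFD, ADIRF and RARRES1 against caput. Lower than in both were 513 (8.1%). Of the germ list, 61 of the 77 genes that could be called were higher than in caput and 70 of 77 than in corpus.

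In the germ-poor members, 21 genes (0.52% of 4035) were called higher than in caput and 67 (1.66%) lower. Against corpus 33 (0.773% of 4269) were called higher and 44 (1.03%) lower. With the 2-fold step above the remaining testis barcodes, 21 (0.52%) remained against caput, 19 (0.445%) against corpus and 16 (0.476% of 3364) against both. Lower than in both were 23 (0.684%). The median log2 ratio over all genes that could be called was -0.94 against caput and -1.04 against corpus, and the values below are read beside it. Counts of called genes in the lists below are likewise read beside these shares over all genes. The caput and corpus groups were not split by germ share. A single UMI stood for 7.97 CPM in the germ-poor members and 50 UMIs for 398 CPM, so that scarce transcription factors could seldom be called.

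Of the genes of gonadal stroma, LHX9 and STMN2 were higher in the testis members than in the epididymal barcodes chosen by the same rule. LHX9 stood at 805 CPM in germ-poor members (interval 655 to 978, 101 UMIs), 10.6 CPM in caput and 13.3 CPM in corpus. That is 75.7-fold over caput (43.1 to 143.5) and 60.5-fold over corpus (37.2 to 103). Germ-rich members had 126 CPM and the remaining testis barcodes 18.7 CPM. Over all 145 members the ratio was 24.6-fold over caput (14.2 to 45.9) and 19.6-fold over corpus (12.3 to 33.0). Per germ-poor barcode LHX9 had a lowest, median and highest count of 0, 2 and 6 UMIs, so the level did not come from a few barcodes. STMN2 stood at 685 CPM in germ-poor members (548 to 846), 18.2 CPM in caput and 12.6 CPM in corpus, which is 54.3-fold over corpus (32.7 to 94.5). Over all 145 members the STMN2 ratio was smaller, at 10.4-fold over caput and 15.0-fold over corpus. In germ-poor members STMN2 was less evenly spread than LHX9, with 86 UMIs in 32 of 56 barcodes and up to 10 in 1.

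GATA4, a zinc finger factor of gonadal somatic cells, had 26 UMIs in 20 germ-poor members, under the 50 needed for a call. It stood at 207 CPM in germ-poor members (135 to 304), 20.5 in caput and 30.6 in corpus, a ratio of 6.78 over corpus (4.02 to 11.2). TCF21 and NR2F2 lay closer to their epididymal levels. TCF21, a helix-loop-helix factor of visceral mesenchyme, stood at 414 CPM in germ-poor members, 173 in caput and 154 in corpus, 2.69-fold over corpus (1.95 to 3.64). NR2F2, the nuclear receptor COUP-TFII of interstitial progenitors in mice, stood at 470 CPM in germ-poor members, 184 in caput and 277 in corpus. The platelet-derived growth factor receptor PDGFRA had 319 CPM in germ-poor members, 226 in caput and 143 in corpus. DLK1, a Notch-family ligand of immature mesenchyme, and WT1, a zinc finger factor, each had 0 UMIs in the members, which allows up to 29.4 CPM in the germ-poor ones by the exact Poisson limit. Of the gonadal stroma list of 30 genes, 13 could be called against corpus in germ-poor members, of which 2 (LHX9 and STMN2) were higher and 0 lower, with a median log2 ratio of -0.90. The counts against caput were 14, 2 and 0, with a median of -0.93. Both medians lay near those over all genes.

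The gonadal genes were also counted per barcode. Of 6 gonadal markers (LHX9, STMN2, TCF21, NR2F2, GATA4 and DLK1), at least 1 was found in 55 of the 56 germ-poor members and at least 2 in 50. At least 3 were found in 32 and at least 5 in 3. In germ-rich members at least 2 were found in 39 of 89 barcodes, and in the remaining testis barcodes in 77 of 8465 (0.91%). LHX9, found in 45 of the 56 germ-poor members, was present in 26 of the 32 with STMN2, 25 of the 29 with TCF21, 23 of the 31 with NR2F2 and 19 of the 20 with GATA4. These shares lay about LHX9's own share of all germ-poor members.

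Of the contractile genes of the peritubular kind, ACTA2 was higher in the testis members than in the epididymal barcodes chosen by the same rule. The defining late smooth muscle genes were near 0. ACTA2 stood at 2159 CPM in germ-poor members (1910 to 2432, 271 UMIs), 45.5 CPM in caput and 52.5 CPM in corpus. This was 47.4-fold over caput (35.7 to 63.8) and 41.1-fold over corpus (31.9 to 53.5). Germ-rich members had 251 CPM and the remaining testis barcodes 3.21 CPM. The count per germ-poor barcode was 0, 3 and 26 UMIs at its lowest, median and highest. Leaving out the highest barcode left 245 of the 271 UMIs. Other contractile genes followed at smaller ratios. MYLK, the kinase of myosin light chains, stood at 669 CPM in germ-poor members, 103 in caput and 130 in corpus, and was called higher than in caput (6.48-fold) but not than in corpus (5.14-fold, 3.93 to 6.67). TPM1, a tropomyosin, stood at 566 CPM in germ-poor members, 217 in caput and 104 in corpus, and was called higher than in corpus (5.46-fold, 4.06 to 7.27). TAGLN (transgelin) had 45 UMIs in 17 germ-poor members, at 359 CPM there, 33.4 in caput and 91.7 in corpus, and MYL9, a myosin light chain, had 183 CPM in germ-poor members, 20.5 in caput and 35.2 in corpus. Both had under 50 UMIs in the germ-poor members.

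In contrast, MYH11, the smooth muscle myosin heavy chain, had 5 UMIs in 3 germ-poor members, DES (desmin) 3 UMIs in 3, and CNN1 (calponin) and ACTG2 (enteric actin) had 0 UMIs. A MYH11 level of 39.8 CPM in germ-poor members (12.9 to 93.0) had an interval that held both 31.9 CPM in caput and 35.2 CPM in corpus. Of the contractile list of 24 genes, 8 could be called against corpus, of which 2 were higher (ACTA2 and TPM1) and 0 lower. The median log2 ratio was 0.88. Against caput 5 could be called, of which 2 were higher (ACTA2 and MYLK) and 0 lower. The summed list stood at 6119 CPM in germ-poor members (5694 to 6567), 1283 in caput and 1477 in corpus.

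Contractile genes were found both with and without gonadal genes. ACTA2 was found in 46 of the 56 germ-poor members, and in 36 of the 45 with LHX9, close to its share of them all. LHX9 was found without ACTA2 in 9, ACTA2 without LHX9 in 10 and neither in 1. ACTA2 was also found in 29 of the 32 members with STMN2, in 16 of the 17 with TAGLN and in 22 of the 24 with RGS5. RGS5, a regulator of G protein signalling that marks pericytes, was in 24 germ-poor members, at 335 CPM there, 33.4 in caput and 59.8 in corpus. EBF1, a transcription factor on the same list, had 45 UMIs in 27 germ-poor members, at 359 CPM there (262 to 480), 168 in caput and 217 in corpus. The other 10 genes of the pericyte list had few UMIs in germ-poor members, with 4 of the receptor NOTCH3, 1 each of the channel subunit ABCC9 and the reductase STEAP4, and 0 of the rest, MCAM, KCNJ8 and HIGD1B among them.

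**Figure D3:**
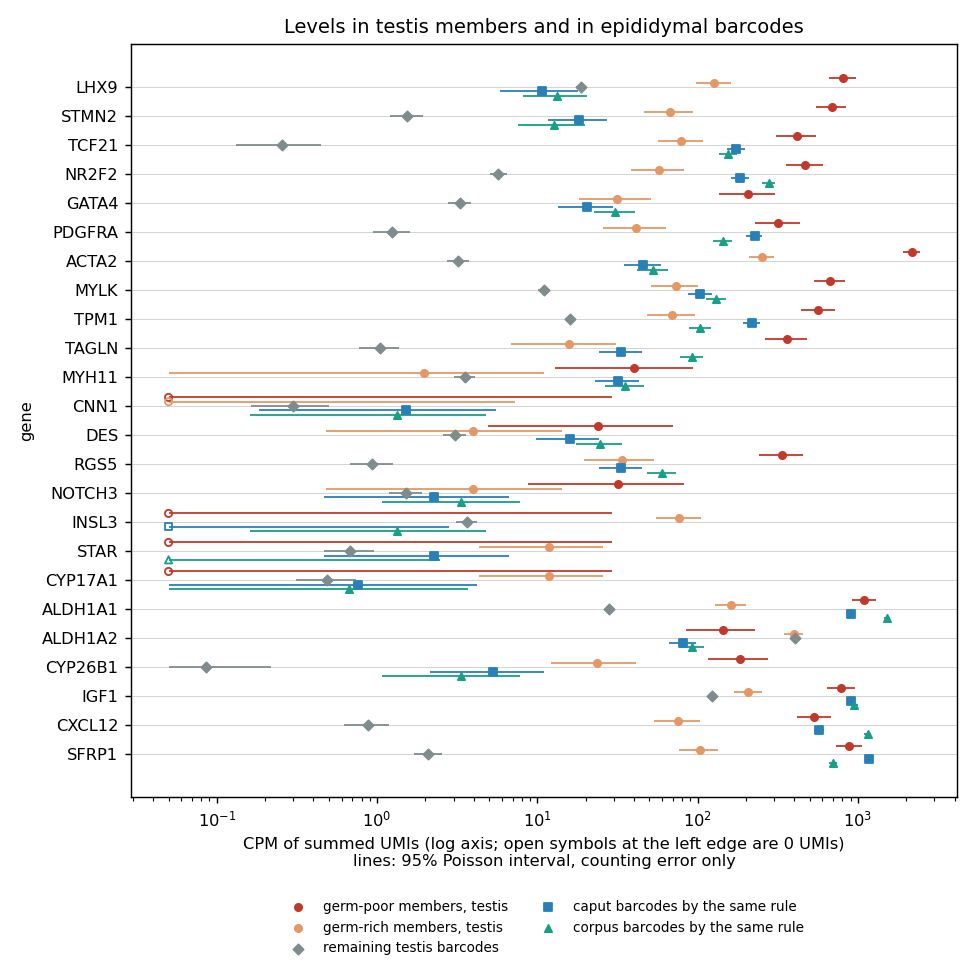
Level of 24 marker genes (rows) in CPM of summed UMIs (horizontal log axis, lines for the 95% Poisson interval) in germ-poor members, germ-rich members, the remaining testis barcodes, and caput and corpus barcodes chosen by the same rule, with open symbols for 0 UMIs. For LHX9, STMN2 and ACTA2 the germ-poor members lie to the right of the other 4 groups, INSL3 is plotted above 0 in germ-rich but not in germ-poor members, and MYH11 and DES overlap between germ-poor members and epididymal barcodes.

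The defining Leydig genes were at or near 0 in the germ-poor members. In germ-poor members INSL3 (the Leydig hormone), STAR (which brings cholesterol into mitochondria), CYP17A1, HSD17B3 and HSD3B2 (steroidogenic enzymes) and LHCGR (the luteinizing hormone receptor) each had 0 UMIs, allowing up to 29.4 CPM. CYP11A1, the enzyme that cuts the cholesterol side chain, had 7 UMIs in 6 germ-poor members, or 55.8 CPM (22.4 to 115), 3.04 CPM in caput (4 UMIs) and 0.665 CPM in corpus (1 UMI). The steroidogenic list summed to 956 CPM in germ-poor members (793 to 1143), 493 in caput and 465 in corpus. Its UMIs in germ-poor members came mainly from 3 genes that are not restricted to Leydig cells. These were the oxidase CYP1B1 with 51 of 120, the mitochondrial translocator TSPO with 22 and the cytochrome CYB5A with 20. None of the list's genes was called in either direction (0 of 4 against corpus, 0 of 3 against caput). With so few genes this cannot be told from the shares over all genes. These were 0.773% higher and 1.03% lower against corpus, and 0.52% and 1.66% against caput.

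INSL3 was instead found in 2 germ-rich members. The first held 29 INSL3, 6 STAR and 2 CYP17A1 UMIs and had met the rule by 10 APOD UMIs with 0 of DCN. The second held 10 INSL3 and 3 CYP17A1 UMIs, 4 of APOD and 1 of DCN. Their germ shares were 4.19 and 4.78%. The library held 210 INSL3 UMIs in 115 barcodes, and the 2 members were the highest of the 14 barcodes with at least 3. LHX9 had 0 UMIs in both.

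Fibroblast and matrix genes were measured widely. Of 54 measured genes of the matrix list, 51 had a UMI in germ-poor members. Leaving out the rule genes, 33 could be called against corpus, of which 1 was higher (CFD, below) and 0 lower, with a median log2 ratio of -0.22. Against caput the counts were 37, 1 (CFD) and 1 (SFRP4, a Wnt antagonist, with 0 UMIs in germ-poor members and 121 CPM in caput), with a median of -0.08. COL6A1, a collagen VI chain, stood at 1275 CPM in germ-poor members, 736 in caput and 750 in corpus. LAMB1, a laminin chain of basement membranes, stood at 996 CPM in germ-poor members, 236 in caput and 328 in corpus, and BGN, the proteoglycan biglycan, at 693, 195 and 197 CPM in the same order. On the other side, MGP, a calcification inhibitor, stood at 916 CPM in germ-poor members, 2355 in caput and 3540 in corpus. FBLN1, the matrix glycoprotein fibulin, stood at 486 CPM in germ-poor members, 1826 in caput and 2172 in corpus. The rule genes, which chose all 3 groups, are given as levels alone. DCN stood at 7131 CPM in germ-poor members, 14360 in caput and 36892 in corpus, and COL1A1 at 645 CPM in germ-poor members, 3607 in caput and 3201 in corpus. LUM, the proteoglycan lumican, had 4 UMIs in germ-poor members, at 31.9 CPM there (8.68 to 81.6), 135 in caput and 63.8 in corpus.

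Lipid carrier and complement genes were strong in the members. APOE stood at 8636 CPM in germ-poor members, 7461 in caput and 21690 in corpus, and per germ-poor barcode it had 3, 16.5 and 50 UMIs at its lowest, median and highest. CFD, the complement protease factor D, stood at 2398 CPM in germ-poor members (2135 to 2685), 115 in caput and 249 in corpus. It was 20.9-fold over caput (17.2 to 25.6) and 9.65-fold over corpus (8.26 to 11.3), and present in 38 of 56 barcodes. The classical complement protease genes C1R and C1S were closer to corpus, with C1R at 2709 CPM in germ-poor members, 1043 in caput and 1893 in corpus, and C1S at 2876, 675 and 1041 CPM in the same order. Of the 11 genes of this list that could be called, 2 were higher, CFD among them, and 1 lower (the lipid transfer gene PLTP) than in corpus. Against caput 1 was higher (CFD) and 1 lower (CLU, the chaperone clusterin, with 0 UMIs in germ-poor members and 920.5 CPM in caput).

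None of the secreted signals on a list of ligands was called higher. Over all genes that could be called, 0.773% were higher and 1.03% lower than in corpus. Against caput the shares were 0.52% and 1.66%. The 0 higher calls on this list thus lay near the share over all genes. Of 26 ligand list genes that could be called against corpus in germ-poor members, 0 were higher and 2 lower (PENK and RSPO3), with a median log2 ratio of -1.11. Of 23 against caput, 0 were higher and 2 lower (RSPO3 and SFRP4), with a median of -0.64. IGF1, the insulin-like growth factor, stood at 789 CPM in germ-poor members, 902 in caput and 950 in corpus. CXCL12, a chemokine of mesenchymal cells, stood at 534 CPM in germ-poor members, 568 in caput and 1151 in corpus. RSPO3, a Wnt signal enhancer, was lower, with 1 UMI (7.97 CPM) in germ-poor members, 207 CPM in caput and 268 CPM in corpus (0.0297 times corpus, 0.000749 to 0.166). Among retinoid genes 0 of 10 were called against corpus. ALDH1A1, a retinoic acid producing enzyme, stood at 1091 CPM in germ-poor members, 903 in caput and 1513 in corpus. ALDH1A2, a second such enzyme, had 143 CPM in germ-poor members, 397 in germ-rich members and 402 in the remaining testis barcodes, lowest in the germ-poor set. CYP26B1, which degrades retinoic acid, had 23 UMIs in 16 germ-poor members, at 183 CPM there (116 to 275), 5.31 in caput and 3.32 in corpus (55.1-fold over corpus, 20.5 to 186), under the 50 UMIs needed for a call.

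Other genes were called higher in germ-poor members than in both epididymal groups. CCN2, a matricellular growth factor binder, stood at 1115 CPM in germ-poor members (938 to 1316), 90.3 in caput and 69.8 in corpus, 15.98-fold over corpus (12.3 to 20.8). EGFLAM, a matrix protein of the agrin family, was 10.7-fold over corpus (7.86 to 14.5) and ADIRF, an adipogenesis regulator, 14.8-fold (10.6 to 20.7). S100A4, a calcium-binding protein of motile cells, was 7.62-fold over corpus (5.43 to 10.6), and VCAM1, a leukocyte adhesion molecule, 5.75-fold (4.61 to 7.13). B2M, the light chain of MHC class I, stood at 15647 CPM in germ-poor members, 2476 in caput and 2156 in corpus, 7.26-fold over corpus (6.86 to 7.68), and had 3, 30.5 and 96 UMIs per germ-poor barcode at its lowest, median and highest. RARRES1, a retinoic acid responsive gene, was 21.9-fold over caput (9.51 to 61.9) over all 145 members, while in germ-poor members alone its 42 UMIs fell short of a call.

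Genes lower in the members than in corpus were led by PENK, the enkephalin precursor, with 1 UMI (7.97 CPM) in germ-poor members, 85.8 CPM in caput and 437 CPM in corpus (0.0182 times corpus, 0.000461 to 0.102). PI15, a peptidase inhibitor, stood at 15.9 CPM in germ-poor members (2 UMIs), 476 in caput and 360 in corpus. NCAM1, a neural cell adhesion molecule, stood at 15.9 CPM in germ-poor members (2 UMIs), 412 in caput and 334 in corpus. CDH13, a cadherin, had 0 UMIs in germ-poor members, against 233 CPM in caput and 261 CPM in corpus. HOXA5, a homeobox factor that patterns the body axis, and RAMP2, a receptor partner, had 0 UMIs in all 145 members, and stood at 72.1 and 88.8 CPM in caput and at 77.1 and 113 CPM in corpus. Against caput the lower genes were led by the sperm-binding protein gene BSPH1, with 0 UMIs in germ-poor members and 2962 CPM in caput, and the defensin gene DEFB119, with 0 UMIs in germ-poor members and 2837 CPM in caput. All 9 luminal epithelial genes that could be called against caput were lower in germ-poor members, and their list summed to 15.9 CPM in germ-poor members (2 UMIs).

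**Figure D4:**
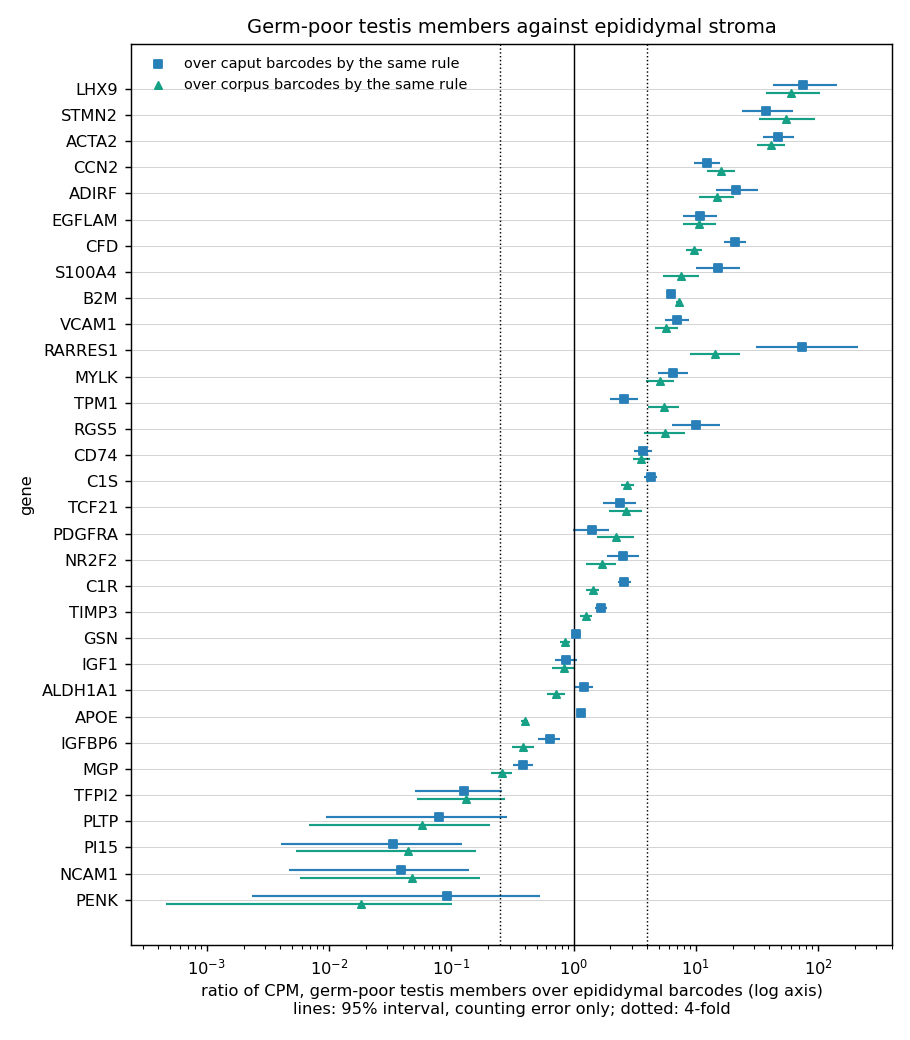
Ratio of CPM in germ-poor testis members over caput (squares) and corpus (triangles) barcodes chosen by the same rule, for 32 genes (rows) on a log axis, with lines for the 95% counting interval, a solid line at equal levels and dotted lines at 4-fold. LHX9, STMN2 and ACTA2 lie between 37.6-fold and 75.7-fold higher, GSN, IGF1 and ALDH1A1 lie near equal levels, and PENK, NCAM1 and PI15 lie beyond 4-fold lower than corpus.

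Endothelial, Sertoli, macrophage, T and natural killer (NK) cells were checked by their markers. Endothelial genes, a list of 16, summed to 7 UMIs over the germ-poor members, and the Sertoli genes SOX9 and AMH had 0. Of the Sertoli list the germ-poor members' UMIs came mainly from VIM (422 of 527), an intermediate filament of mesenchyme, and PTGDS (97), a prostaglandin synthase. The macrophage genes C1QA, C1QB, C1QC, CD68, CD163, CSF1R and AIF1 had 0 UMIs in germ-poor members. CD74, the MHC class II invariant chain, had 193 UMIs in 39 germ-poor members, at 1538 CPM there (1328 to 1771), 413 in caput and 428 in corpus, 3.59-fold over corpus (3.04 to 4.23). LHX9 was found in 32 of these 39. Of 443 genes that could be called between the germ-poor members and 71 testis barcodes that were germ-poor but not members, 90 (20.3%) were higher and 30 (6.77%) lower in the members, a contrast that the rule set. In these 71 barcodes CD74 stood at 3768 CPM, the leukocyte phosphatase PTPRC at 614 CPM and the lysozyme gene LYZ at 1293 CPM. PTPRC had 8 UMIs in 3 germ-poor members and LYZ 7 UMIs in 1. The T and NK list of 20 genes had 24 UMIs in germ-poor members, at 191 CPM there (123 to 285), 350 in caput and 555 in corpus. Its median per germ-poor barcode was 0, but its highest was 4118 CPM, above the median of 782 CPM in the 71 barcodes. The germ-poor set was therefore not free of leukocyte transcripts.

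The germ-poor members also varied among themselves. Over 415 genes with at least 40 UMIs in them, the median dispersion was 1.42. Dispersion is the spread of counts between barcodes relative to what depth and Poisson counting give, and is 1 without further spread. It was highest, among these genes, for the interferon-induced chemokine CXCL10 (12.7) and the heat shock gene HSPA6 (11.1), and both rested on few barcodes. CXCL10 had 24 of its 50 UMIs in 1 of the 10 barcodes with any, and HSPA6 had 26 of 50 in 1 of 9. CXCL10 stood at 398 CPM in germ-poor members, 61.5 in caput and 17.3 in corpus, 23.1-fold over corpus, a value to which that 1 barcode gave 48.0% of the UMIs. Among genes with a symbol found in most barcodes, dispersion was 9.76 for APOD and 9.57 for DCN, both rule genes, and 7.504 for CFD. It was 7.28 for APOE, 6.93 for B2M, 6.14 for the ribosomal protein gene RPLP1 and 5.78 for the gelsolin gene GSN. CCN2 had 5.72, the ubiquitin gene UBB 5.02 and ACTA2 4.95, so the spread was not confined to stromal markers. Immediate early and stress genes were present as well. FOS, an early response transcription factor, stood at 1840 CPM in germ-poor members, 571 in caput and 1666 in corpus, JUN, its partner, at 1402, 887 and 1082 CPM in the same order, and EGR1, a zinc finger early response factor, at 789 CPM in germ-poor members, 151 in caput and 409 in corpus. Of the 10 such genes that could be called against caput, 4 were higher (CCN2, EGR1, HSPA6 and ZFP36), and of 17 against corpus, 2 were (CCN2 and GADD45B), with 0 lower in either. Over all genes, 0.52% were higher than in caput and 0.773% than in corpus. The level was not particular to the members. The list summed to 9776 CPM in germ-poor members and 11650.5 CPM in the 71 germ-poor testis barcodes that were not members. Between these 2 groups 11 genes could be called, with 1 higher and 1 lower in the members.

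Against the remaining testis barcodes, from which the rule itself separated them, 244 genes were higher in all members (2.26% of 10793) and 1 lower (0.00927%), and in germ-poor members 187 were higher (1.62% of 11513) and 191 lower (1.66%). In germ-rich members 53 were higher (0.492% of 10782) and 0 lower. Between the sets, 144 genes were higher (7.06% of 2039) and 129 lower (6.33%) in germ-poor than in germ-rich members. These counts describe the choice of barcodes. The leading higher genes over all members were TCF21, the mesenchymal surface protein gene ISLR, CCN2, COL6A1, APOE and MGP. TCF21 stood at 145.5 CPM in members, 0.255 CPM in the remaining testis barcodes, and ISLR at 356 CPM in members, 0.893 CPM in the remaining testis barcodes.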

How the data were processed

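UMI counts of 3 droplet libraries (DNBelab C4) were used. The deposited matrices hold whole-number counts per feature and barcode, not normalized. Per the file headers they come from PISA 0.12, with aligner and genome build not given in the sources used here. Cell Ranger 2.1.1 stands in the submitters' processing notes with no role stated. Of 18266 features named by locus, 749 took a symbol from RefSeq's gene table, which served no other purpose. No filter on cells was added. No gene sequences were used here.

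Counts were summed per group and scaled to CPM, with exact Poisson intervals; ratios have exact conditional binomial intervals and shares Clopper-Pearson intervals (scipy 1.17.1, numpy 2.4.6 and pandas 2.3.3 under Python 3.11.15; scikit-learn 1.9.0 and scikit-image 0.26.0 for doublet scores; matplotlib 3.10.9 for figures). With 1 library per group no test was made. The ratio intervals and the 4-fold call were tested on simulated Poisson counts, and the other steps were not. The simulated total was like that of all members, not of the germ-poor set, and held no spread between barcodes. Doublets were scored with 2 simulated per barcode.

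The members and gene lists were chosen with earlier results of these data known. Named genes were the rule genes and markers, up to 6 per list with the most UMIs, and in each comparison the 12 called genes per direction whose interval lay farthest from 1, higher ones also over 2-fold above the remaining testis barcodes. Genes outside this rule, among them those named for being at or near 0, were chosen after their values were seen. Some genes of the lists are not reported here.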

Additional observations from a re-analysis of the deposited data

How the results depend on the processing

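The all-member values depended on which barcodes were kept. With 10 or more, 3 or more, or also 10 rule UMIs per 10000, with no merged barcodes, without barcodes above the members' median germ share, and with germ-poor members only (chosen after seeing the data), the germ share was 3.67, 4.82, 3.94, 3.78, 1.92 and 0.88%, against 4.15% in all 145 members. In the same order the contractile list stood at 2711, 1621, 2365, 2611, 4614 and 6119 CPM (2091 in all members) and the gonadal list at 1845, 973, 1584, 1755, 3203 and 4374 CPM (1384). The steroidogenic list stood at 546 CPM, and at 639.5, 470, 993 and 956 CPM with 10 or more, 3 or more, the median and the germ-poor settings. Genes called higher than in caput (658) numbered 417, 1008, 107 and 21 in those 4 settings, and lower ones (684) 331, 1300, 116 and 67, or 428 with no merged barcodes. Genes called lower than in corpus (745) numbered 366, 1286, 88 and 44. Genes called higher than in corpus (930) numbered 177 and 33 with the median and germ-poor settings, and 1460 with 10 UMIs needed on the higher side. The germ-poor members numbered 56. None of the 33 named gene ratios reversed (0). These ratios were picked for lying far from 1 in all members, and the settings share barcodes with them, so this is no independent check. With germ-poor members only 8 fell short of a call (RAMP2, TGFBI, CFTR, CD52, CTNND2, HOXA5 and TFPI2 against corpus, RARRES1 against caput, with 42 UMIs). The ratios of the first 7 were then 0 to 0.132, against 0 to 0.0449 in all members; the cause was not tested. Scaling without germ and ribosomal protein genes moved the median log2 ratio by 0.062 against corpus and 0.028 against caput. No paired analysis was possible because each tissue had 1 library. Depth limited scarce genes, since 50 UMIs stood for 398 CPM in germ-poor members.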
